A study of Mus musculus with 4 samples.

Results

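The inferior vena cava of wild-type mice was compared between 48 h of ligation and sham surgery, 1 array a side. These are 2 of the 4 arrays of the study; the others carry the same surgeries in mice lacking CD39, the enzyme encoded by Entpd1 that breaks down extracellular ATP and ADP on endothelial cells and leukocytes. All mice were of C57BL/6J background (bred back for at least 8 generations), 8 to 10 weeks old, and male or female, with the sex of each pool not given. RNA of 4 mice was pooled for each array. In ligated mice the vein was tied just below the renal veins, completely or partially, its side branches were tied and its back branches cauterised. Sham mice had the abdomen opened and the vein dissected free without a ligature. Wall and thrombus were separated for some uses of the tissue, and whether the piece that gave the RNA held clot is not given.

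Probe sets that carry exactly 1 gene symbol were used, the brightest for each gene, which gave 18820 genes. The 14115 genes whose mean over the 4 arrays reached 2.29 log2 were kept. Each gene has a log2 expression value on each array, and a step of 1 is a factor of 2. A difference is the ligated array minus the sham array. With 1 pooled array a side there is no spread between replicates, no test and no p-value, which limits the precision of what can be said. Levels of different genes come from different probes and are not compared with each other.

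A vein in which flow stops fills with a thrombus made of fibrin, platelets and red cells. Over the following days neutrophils and then monocytes enter it, fibrin is dissolved by plasmin, red cells are taken up by macrophages, and myofibroblasts lay down matrix. The normal wall consists of an endothelium that keeps blood fluid through nitric oxide, prostacyclin and thrombomodulin, a thin layer of smooth muscle, and an adventitia with fibroblasts, fat and sympathetic nerve fibres.

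The defining genes of this tissue were well above background on the sham array: the smooth muscle actin gene Acta2 was at 9.68, the smooth muscle myosin gene Myh11 at 9.46, the endothelial cadherin gene Cdh5 at 8.37 and the venous transcription factor gene Nr2f2 at 7.25. Background was taken as the 95th percentile of 1006 olfactory receptor probe sets, 2.94 on the sham array and 2.66 on the ligated array. Of the genes kept, 3269 lay at or under it on at least 1 of these arrays, so their differences are approximate. The sham piece also held nerve (Npy at 8.45) and fat (Adipoq at 7.62). The 9 genes kept of kidney, liver and pancreas had a median level of 3.25 in sham and 2.75 after ligation. In sham 7 of them were above background, and 2 were at least 2-fold lower after ligation, among them albumin (Alb, 3.89 and 2.70). The Y-linked genes were above background on both arrays, Kdm5d at 4.94 and 5.11, Uty at 4.53 and 4.52 and Eif2s3y at 5.93 and 5.59. Xist was at 1.90 and 1.63, under background on both. As a measure of spread between probe sets, a gene's brightest and next probe set gave ligation differences a median of 0.30 apart over 1223 genes. Both probe sets were read on the same arrays and RNA pools, so this gap leaves out variation between arrays, pools and dissections. Of 133 such genes that were at least 2-fold apart by the brightest, the next probe set had the same sign in 110 and was itself at least 2-fold apart in that direction in 45. Of 990 olfactory receptor genes, most of them near background, 4 (0.404%) were at least 2-fold apart.

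More genes were higher than lower after ligation. At least 2-fold apart were 1444 genes (10.2% of those kept), of which 932 (6.6%) were higher and 512 (3.63%) lower. At 4-fold these counts were 116 and 49, and at 8-fold 5 and 8. The median difference of all genes kept was -0.01 and their standard deviation 0.63. In the lists described in the following paragraphs, a share of members near 6.6% higher or 3.63% lower is what the genes kept show as a whole. These shares depended on signal level. Of the 3529 genes with the lowest mean level 33 were higher and 61 lower, and of the 3529 with the highest 392 and 166. The shares of all genes are therefore only a rough reference for lists of mostly dim or mostly bright genes. No share matched for level was computed. The same gene may stand in several lists.

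**Figure D1:**
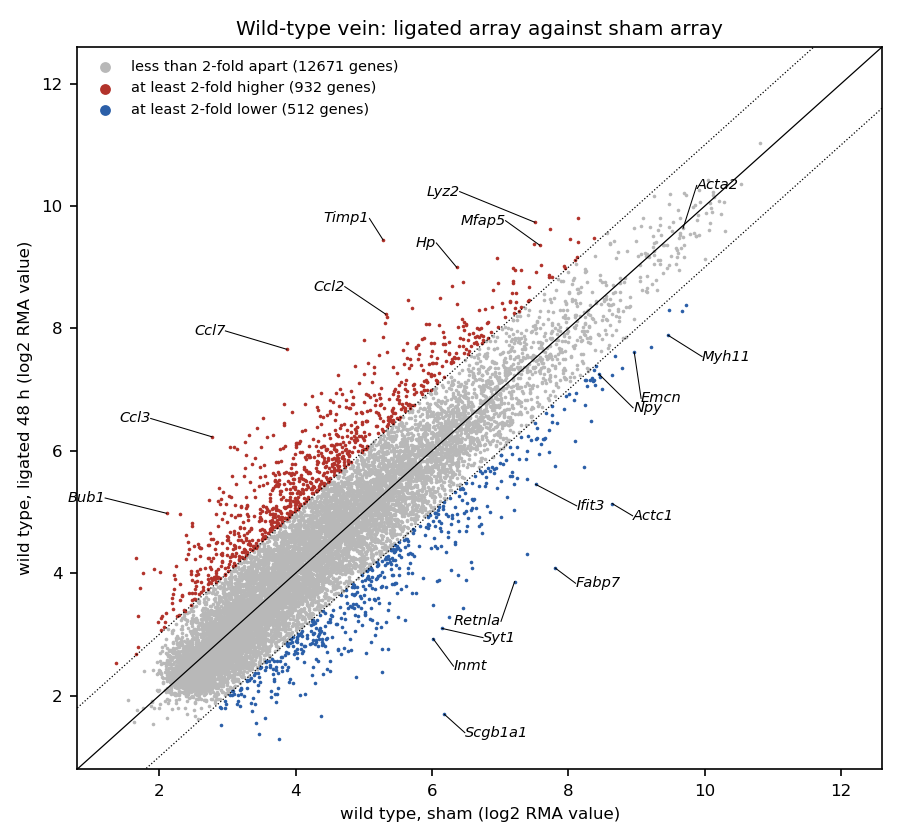
Log2 value of each of the 14115 genes kept on the wild-type sham array (horizontal axis) and the wild-type ligated array (vertical axis); the solid line marks equal values and the dotted lines a 2-fold difference. Red points are the 932 genes at least 2-fold higher after ligation and blue points the 512 at least 2-fold lower, with Timp1 farthest above the line and Scgb1a1 farthest below it.

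Among single genes, the one with the highest difference was Timp1, a secreted inhibitor of matrix metalloproteinases, which was at 5.28 in sham and 9.45 after ligation, 17.9-fold higher. It was followed by the monocyte attractant Ccl7 (3.87 and 7.66) and by Ccl3, an attractant of monocytes and other leukocytes, which lay under background in sham at 2.78 and was at 6.23 after ligation. Several of the other ranked genes are best known from phagocytes. Tlr13, an endosomal receptor for bacterial ribosomal RNA, was at 3.04 and 6.06. The inhibitory myeloid lectin Clec12a was at 3.10 and 6.06, and Cyba, the membrane subunit shared by phagocyte NADPH oxidases, at 3.43 and 6.38. The sialic acid receptor Siglec1 of macrophages was at 3.14 and 6.03, the lysosomal thiol reductase Ifi30 at 5.34 and 8.19, and the lysosomal membrane protein Laptm5 of blood cells at 5.64 and 8.46. Among the ranked genes that are not phagocyte markers were the small nucleolar ribonucleoprotein gene Nhp2 (3.53 and 6.54), the clathrin adaptor gene Ap2s1 (3.32 and 6.26) and the mitotic checkpoint kinase gene Bub1 (2.11, under background, and 4.98).

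At the low end stood genes of epithelium, nerve, muscle and fat. Scgb1a1, a secretoglobin best known from airway club cells, was at 6.18 in sham and 1.70 after ligation, under background there. Fabp7, the fatty acid binding protein of glia, was at 7.81 and 4.09, and Actc1, cardiac actin, at 8.64 and 5.14. Retnla, a secreted product of alternatively activated macrophages and of fat tissue, was at 7.21 and 3.86. These values were followed by the methyltransferase Inmt (6.02 and 2.93), the vesicle transporter Slc10a4 of aminergic and cholinergic neurons (7.39 and 4.32), the calcium sensor of synaptic vesicles Syt1 (6.15 and 3.10) and Cox8b, a cytochrome oxidase subunit of muscle and brown fat (6.45 and 3.43). The leptin receptor Lepr was at 5.26 and 2.76, the synapsin Syn2 at 6.59 and 4.09, and the calcium-binding Hrc of the sarcoplasmic reticulum at 6.02 and 3.49. Scgb1a1, the estrogen sulfotransferase gene Sult1e1 and the epithelial disulfide isomerase gene Agr2 were under background after ligation, so the sizes of their differences are approximate. All 30 ranked genes had a single probe set.

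**Figure D2:**
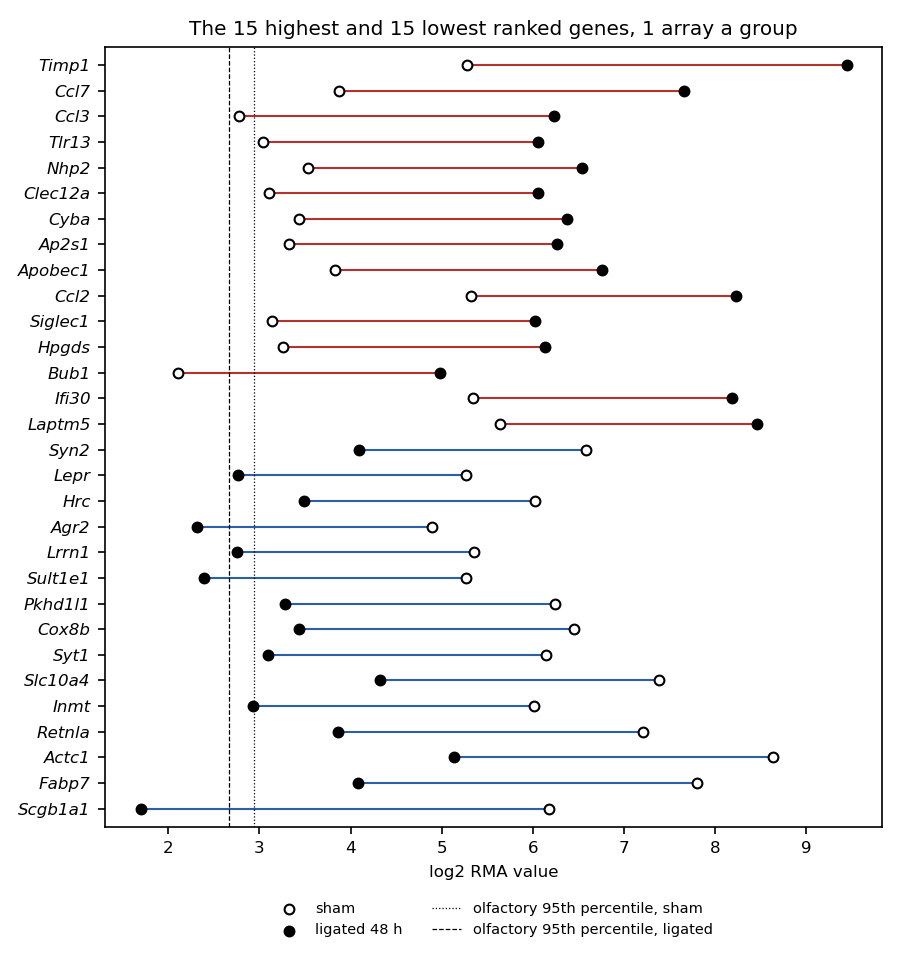
Log2 values of the 15 highest and 15 lowest ranked genes on the wild-type sham array (open circles) and ligated array (filled circles), with vertical lines at the olfactory receptor background of each array. Ccl3 and Bub1 start under the background in sham, and Scgb1a1, Sult1e1 and Agr2 end under it after ligation.

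Among the leukocyte types, the markers of monocytes and macrophages had the highest median difference. Of 26 markers, 22 were at least 2-fold higher and 0 lower after ligation, and the list's median difference was 1.77, against -0.01 for all genes. In a piece of tissue, more cells of a type and more RNA per cell cannot be told apart, here and in every list that follows. The growth factor receptor Csf1r, on which macrophages depend, was at 4.65 in sham and 7.01 after ligation. Ccr2, the receptor that draws monocytes out of blood, was at 5.00 and 7.82, the scavenger receptor Msr1 at 3.94 and 6.64, the phagocyte transcription factor gene Spi1 at 3.40 and 5.88, and the macrophage surface receptor Adgre1 at 5.12 and 7.12. Cx3cr1, high on patrolling monocytes and some resident macrophages, was at 5.40 and 5.75. Genes of resident vessel macrophages were mixed: 5 of 13 were at least 2-fold higher, with Cbr2 (4.14 and 6.77) and the hemoglobin scavenger receptor Cd163 (3.63 and 5.24) among them, while Lyve1 was at 6.98 and 7.17 and Timd4 at 3.61 and 2.77.

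The activation genes of macrophages did not shift together, with 2 of 14 higher, 1 lower and a median of 0.40. Arg1, the arginase of alternatively activated macrophages, was at 4.50 in sham and 6.83 after ligation, while Retnla, often used as a marker of the same state, was the fourth lowest of the ranked genes. Nos2, the inducible nitric oxide synthase of classically activated macrophages, was under background on both arrays, at 2.68 and 2.50. The lectin Clec4d was at 3.99 and 5.78. The matrix protein and TGF-beta activator Thbs1, at 7.11 and 8.00, was less than 2-fold higher.

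Of 7 NADPH oxidase genes, 5 were at least 2-fold higher: Cyba, the cytosolic organiser Ncf1 (3.79 and 5.83), the catalytic subunit Cybb (4.71 and 6.44), Ncf4 (2.84 and 4.50) and the GTPase Rac2 (4.30 and 5.73). Nox4, the isoform of vascular wall cells, was at 5.57 and 5.02. In a list of 35 lysosomal genes that was drawn up after the values had been seen, 19 were higher and 0 lower, with a median of 1.13. These included the endopeptidase Lgmn (6.46 and 8.76), the proton pump subunit Atp6v0b (3.84 and 6.46) and the tripeptidyl peptidase Tpp1 (4.83 and 6.76). Over 13 cathepsin genes, 7 were higher. A second list drawn up in this way holds 23 actin regulators that are abundant in leukocytes, of which 16 were higher and 0 lower (median 1.46), such as the myosin Myo1f (3.83 and 6.43) and the actin-binding Cotl1 (3.49 and 6.06).

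Markers of other leukocytes moved less. Of 19 neutrophil markers, 3 were at least 2-fold higher (median 0.02): the G-CSF receptor Csf3r (3.69 and 5.52), the chemokine receptor Cxcr2 (4.42 and 6.09) and the lectin Clec5a (2.02, under background, and 3.26). With values raised to the background Clec5a was no longer 2-fold apart. The most abundant neutrophil alarmin gene, S100a8, was at 9.30 and 8.63, and the granule gene Ltf was under background on both arrays at 2.43 and 2.20. Among 18 T and NK cell markers 0 were 2-fold apart in either direction. The T cell receptor chain Cd3e was at 2.89 and 2.82, which is under background in sham and just above it after ligation. Of 12 B cell markers 2 were lower, Ms4a1, which encodes CD20 (4.24 and 2.33, under background), and the IgM Fc receptor Fcmr (4.25 and 2.92). Of 16 MHC class II and dendritic cell genes 4 were higher and 1 was lower (median 0.50). The higher ones included the invariant chain gene Cd74 (6.47 and 8.11), H2-Aa (7.21 and 8.26) and the lectin gene Clec10a (2.01, under background, and 4.01). Clec9a of cross-presenting dendritic cells was the lower one, at 3.69 and 2.57 (under background). The 8 mast cell genes had 1 higher and 1 lower (median 0.15), with 4 of them above background in sham. The receptor Kit was at 3.16 and 4.55. The carboxypeptidase Cpa3, at 5.01 and 4.13, was less than 2-fold lower.

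Of 16 CC chemokines 7 were at least 2-fold higher and 1 was lower, and with the remaining 8 less than 2-fold apart the median was -0.01 (1.83 when only genes above the median level were kept). The Ccr2 ligands Ccl2 (5.32 and 8.23), Ccl7 and Ccl12 (5.69 and 6.75) were all higher, as were the Ccr1 ligands Ccl3, Ccl6 (5.71 and 8.34) and Ccl9 (4.24 and 6.90), and Ccl8 (4.63 and 7.25). Ccl11, the eosinophil attractant eotaxin, was lower, at 8.41 in sham and 7.39 after ligation. Of 14 CXC, XC and CX3C chemokines, only Cxcl5, a neutrophil attractant that acts on Cxcr2, was 2-fold apart, at 2.74 (under background) and 5.20. The other Cxcr2 ligands Cxcl1 (4.76 and 4.87) and Cxcl2 (5.17 and 6.09) were not. Among chemokine receptors Ccr2 and Cxcr2 were higher, Ccr1 was at 3.65 and 4.61, and the scavenging receptor Ackr3 was lower, at 6.59 and 5.21.

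Among cytokines, Il1b, the fever cytokine of the inflammasome, was at 4.60 in sham and 6.02 after ligation, the pore protein Gsdmd at 3.67 and 5.06 and the DNA sensor Aim2 at 4.23 and 5.47, and these 3 of 17 genes of the interleukin-1 family and inflammasome were 2-fold higher. Il6, which drives the acute phase response, was under background in sham at 2.60 and at 4.28 after ligation, the single 2-fold member of its family of 12 (8.33% against 6.6% of all genes). Tnf itself was at 2.68 and 3.52. Of 23 genes of the TNF superfamily 3 were higher and 2 lower (median 0.38). The receptors Tnfrsf23 (4.41 and 6.09) and Tnfrsf1b (4.16 and 5.50) were higher. The death receptor Fas (6.23 and 4.94) and death ligand Tnfsf10 (4.30 and 2.59, under background) were lower. Colony stimulating factor receptors were higher in 4 of 8 genes of that list, Csf1r and Csf3r foremost, while the ligand Csf1 was at 5.44 and 6.02.

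Of 17 genes of Toll-like receptors and their adaptors 7 were higher and 0 lower (median 0.83). Apart from Tlr13 these included the endosomal chaperone Unc93b1 (4.50 and 6.65), the adaptor Myd88 (3.83 and 5.46), the single-stranded RNA receptors Tlr7 (3.25 and 4.62) and Tlr8 (2.68 and 4.09) and the cell-surface receptor Tlr1 (5.00 and 6.18). The endotoxin receptor Tlr4 was at 5.56 and 6.19. Of 15 complement genes 5 were higher and 1 was lower: C5ar1 was at 4.59 and 6.94, C3ar1 at 5.58 and 7.64, C1qa at 4.07 and 5.98 and C1qb at 5.80 and 7.50, whereas the complement inhibitor Cd55 was at 6.42 and 5.38.

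Enzymes that make prostaglandins and leukotrienes were higher in 7 of 17 genes and lower in 2. Hpgds, the prostaglandin D synthase of blood cells, was at 3.26 in sham and 6.14 after ligation. The leukotriene pathway had Alox5ap at 6.16 and 7.94 and Alox5 at 3.55 and 4.86, and the thromboxane synthase Tbxas1 was at 3.35 and 4.75. The inducible cyclooxygenase Ptgs2 was at 4.85 and 5.48, and the prostacyclin synthase Ptgis at 4.25 and 4.96, both under 2-fold. The platelet lipoxygenase Alox12 was lower, at 4.79 and 3.47.

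Of 10 fibrinolysis genes 5 were at least 2-fold higher and 0 lower (median 0.92). The urokinase gene Plau was at 4.00 in sham and 6.09 after ligation, the tissue plasminogen activator gene Plat at 4.06 and 5.51, and the inhibitor of both, Serpinb2, at 3.29 and 5.12. The clearance receptor Lrp1 was at 6.00 and 7.44. Of 21 heme and iron genes 8 were higher and 1 lower (median 0.65). The hemoglobin-binding protein haptoglobin, Hp, was at 6.36 in sham and 6.20-fold higher after ligation, and Hmox1, the enzyme that opens the heme ring, at 6.37 and 8.40. The biliverdin reductases that act after it were at 3.96 and 5.48 (Blvra) and 4.53 and 5.86 (Blvrb), and the ferroxidase ceruloplasmin, Cp, was at 7.65 and 6.20. By their known roles, Hp, Hmox1, Blvra and Blvrb act in the binding of hemoglobin, the opening of heme and the reduction of its product.

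Platelet and megakaryocyte genes were lower in 6 of 14 and higher in 0, with a median of -0.79. The podoplanin receptor Clec1b was at 6.11 in sham and 3.90 after ligation, the von Willebrand receptor subunit Gp5 at 4.76 and 2.74, the chemokine Ppbp at 8.79 and 7.35 and the platelet tubulin Tubb1 at 4.02 and 2.76. Pf4, which macrophages also contain, was at 7.96 and 8.45, and the integrin chain Itga2b was near background on both arrays at 2.95 and 2.78. Of 4 red cell genes 0 were 2-fold apart, with the erythroid heme synthesis enzyme Alas2 at 5.45 and 4.86. Among coagulation genes the cross-linking factor F13a1, which macrophages also make, was at 5.80 and 7.73 and the inhibitor Tfpi2 at 4.26 and 5.42. The carrier of factor VIII, Vwf, was at 7.54 and 6.21 and factor VIII itself, F8, at 4.81 and 2.75. Tissue factor, F3, was at 5.63 and 5.72, and thrombomodulin, Thbd, at 6.31 and 5.48.

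Of 11 fibrillar collagens 5 were at least 2-fold higher: Col1a1 (5.34 and 7.61), Col1a2 (5.76 and 7.69), Col3a1 (6.47 and 7.98), Col5a1 (4.30 and 5.51) and Col5a2 (4.56 and 5.88). These encode chains of collagens I, III and V. The other 6, among them the third type V chain gene Col5a3 (3.30 and 3.57), were under 2-fold. The median was 0.27, and 1.51 when only genes above the median level were kept. Type VI collagen, a beaded filament around cells, had its main chain genes Col6a1 (4.60 and 5.99), Col6a2 (4.60 and 6.01) and Col6a3 (5.91 and 7.16) higher, while Col6a6 was at 3.77 and 2.97; these stand in a list of 16 FACIT and other collagens with 4 higher, 0 lower and a median of 0.09. Of 19 basement membrane and network genes 3 were higher and 0 lower (median 0.12), with the chain gene Col4a1 at 3.86 and 5.38. Enzymes that fold, trim and cross-link collagen were higher in 9 of 17 and lower in 0 (median 1.15). Among them were the prolyl hydroxylase subunit P4ha3 (2.91, under background, and 5.21), the procollagen proteinase Bmp1 (4.37 and 6.07) and the cross-linking oxidases Loxl2 (4.63 and 6.24) and Lox (7.03 and 8.42). The collagen chaperone Serpinh1 was at 6.21 and 6.61.

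Provisional and elastic matrix followed, with 11 of 24 genes higher and 0 lower (median 0.92). The wound glycoprotein tenascin C, Tnc, was at 5.28 in sham and 7.86 after ligation, the proteoglycan versican, Vcan, at 5.99 and 7.76, fibronectin, Fn1, at 8.09 and 9.12 and elastin, Eln, at 5.54 and 6.55. Of 24 metalloproteinase genes 8 were higher and 0 lower, led by Adam12 (3.37 and 5.79), the membrane-bound collagenase Mmp14 (5.77 and 7.69) and Mmp19 (4.34 and 6.16), with the gelatinases Mmp2 at 5.51 and 6.89 and Mmp9 at 3.16 and 4.11. The inhibitors did not share one direction. Beside Timp1, Timp2 was at 7.89 and 8.02, Timp3 at 7.97 and 8.40, Timp4 at 5.08 and 4.15, and the membrane-anchored Reck at 5.41 and 4.26. Of 23 genes of the TGF-beta pathway and CCN family 3 were higher and 1 was lower, with a median of 0.20. The largest differences were those of connective tissue growth factor, Ccn2 (5.88 and 7.84), a target of TGF-beta signalling, and the BMP antagonist Grem1 (4.87 and 3.32).

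The fibroblast list as a whole was near the background of all genes, with 3 of 21 higher, 2 lower and a median of 0.05. Its general markers Pdgfra (5.16 and 5.86) and Pi16 (4.55 and 4.88) were under 2-fold, and Postn, a matrix protein of activated fibroblasts, was at 8.28 and 8.76. Cilp (2.84, under background, and 4.96) and the microfibril gene Mfap5 (7.58 and 9.36) were higher, and Cd34 (7.94 and 6.68) and Clec3b (4.55 and 3.40) lower. In a list of 35 secretory pathway genes drawn up after the values had been seen, 16 were higher and 0 lower (median 0.73). The collagen-related transcription factor gene Creb3l1 was at 5.22 and 7.57, the reticulum calcium-binding Rcn3 at 5.15 and 7.37 and the translocon channel Sec61a1 at 4.79 and 6.69. Chaperones of the unfolded protein response were under 2-fold in the key member Hspa5 (7.54 and 8.12), and 4 of that list's 22 genes were higher.

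**Figure D3:**
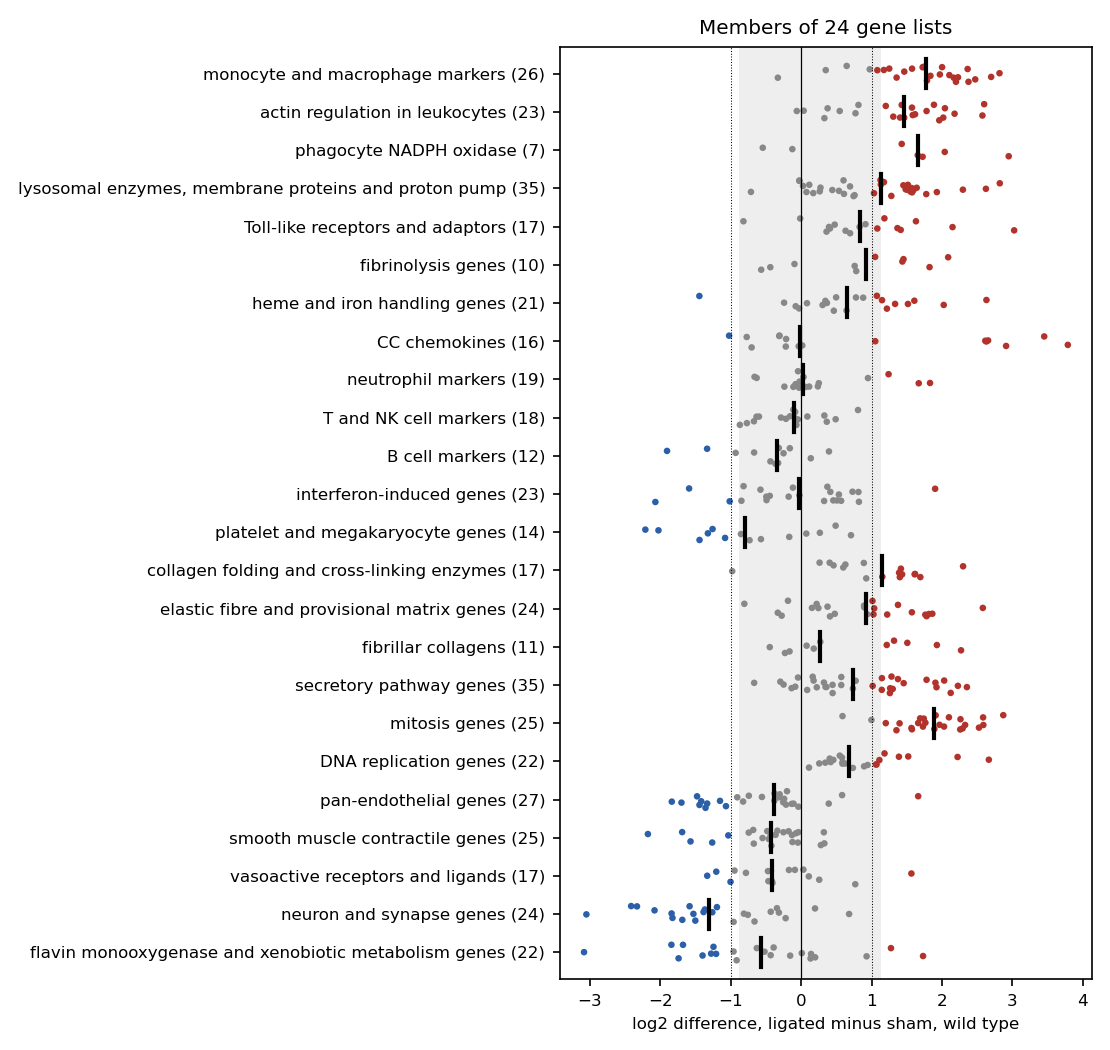
Ligation differences (ligated minus sham, log2, horizontal axis) of the members of 24 gene lists in wild type, with the number of members kept in brackets; each point is a gene, the black bar is the list's median, and the grey band holds the middle 90% of all genes kept. Mitosis genes lie farthest to the right by median (1.89) and neuron and synapse genes farthest to the left (-1.31).

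Of 25 mitosis genes 23 were at least 2-fold higher and 0 lower, and their median of 1.89 was the highest of the 77 lists. The proliferation marker Mki67 was at 3.67 in sham and 6.26 after ligation, topoisomerase Top2a at 4.37 and 6.95, the kinetochore motor Cenpe at 3.06 and 5.59 and the survivin gene Birc5 at 3.48 and 5.74. In sham 19 of the 25 were above background, after ligation all 25. DNA replication genes were higher in 8 of 22 and lower in 0 (median 0.68), among them the methylation maintenance factor Uhrf1 (2.31, under background, and 4.97), thymidine kinase Tk1 (3.54 and 5.77) and the helicase subunit Mcm3 (2.73, under background, and 4.25), with the sliding clamp Pcna at 7.53 and 8.11. Of 14 cell cycle inhibitors and p53 targets 2 were higher, Cdkn1a (4.61 and 5.88) and Cdkn2c (4.19 and 6.09), and 1 was lower, Cdkn1b (7.67 and 6.62), whose difference of -1.04 became -0.29 with its probe sets averaged; the median was -0.08. Myc, a driver of growth, was at 5.96 and 7.42.

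Many mitotic promoters carry CCAAT boxes, bound by the factor NF-Y, and the sequence TTTGAA, a form of the element through which the DREAM complex silences them in resting cells. To show how these letters lie in the genes described, the 250 bases before the start of transcription are printed for Bub1, Mki67 and Top2a, from RefSeq promoter sequences on build GRCm38.p6, in 5′ to 3′ direction of the gene. Capitals mark CCAAT or TTTGAA on either strand (ATTGG and TTCAAA on the other). The windows are chr2:127831860-127832109 (Bub1), chr7:135716380-135716629 (Mki67) and chr11:99024190-99024439 (Top2a), all on the minus strand.
Bub1: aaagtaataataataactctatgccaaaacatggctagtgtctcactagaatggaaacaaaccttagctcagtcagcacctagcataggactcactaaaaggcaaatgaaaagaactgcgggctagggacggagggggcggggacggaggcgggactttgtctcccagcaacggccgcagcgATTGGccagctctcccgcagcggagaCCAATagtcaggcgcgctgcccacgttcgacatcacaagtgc
Mki67: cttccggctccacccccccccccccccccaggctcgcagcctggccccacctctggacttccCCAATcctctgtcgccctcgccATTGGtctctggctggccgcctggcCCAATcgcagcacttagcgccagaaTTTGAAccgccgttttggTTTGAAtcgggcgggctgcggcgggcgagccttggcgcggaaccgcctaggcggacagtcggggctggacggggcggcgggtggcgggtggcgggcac
Top2a: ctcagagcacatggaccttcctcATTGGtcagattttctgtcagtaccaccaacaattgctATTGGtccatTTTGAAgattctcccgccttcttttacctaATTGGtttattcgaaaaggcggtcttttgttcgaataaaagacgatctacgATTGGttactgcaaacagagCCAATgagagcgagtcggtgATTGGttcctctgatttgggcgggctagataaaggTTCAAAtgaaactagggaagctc

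The Bub1 window held 2 CCAAT and 0 TTTGAA matches, that of Mki67 3 and 2, and that of Top2a 6 and 2. Of the mitosis genes 22 have a window in the table, and 16 of them (72.7%) held CCAAT against 39.1% of the 11186 genes kept that have one. TTTGAA stood in 9 of the 22 (40.9%) against 13.4%. In DNA replication genes the CCAAT share was 14 of 19 (73.7%) and the TTTGAA share 2 of 19 (10.5%). TTTGAA also stood in 4 of 10 CC chemokine windows (40%), so it was not limited to mitosis genes. Over all genes at least 2-fold higher the CCAAT share was 41.2% and over those lower 40.5%, near that of all genes. A match is a description of the letters and not evidence of binding. For the CArG box, by which serum response factor acts in muscle, 2 of 21 smooth muscle genes had a match against 1.45% of all, and for the kappaB site, by which NF-kappaB acts, 2 of 10 CC chemokines and 4 of 10 CXC, XC and CX3C chemokines against 10.5%.

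Endothelial genes were lower in part. Of 27 pan-endothelial genes 9 were at least 2-fold lower and 1 higher, with a median of -0.38. The cadherin Cdh5, a junctional marker of the endothelium, was close to its sham level, at 8.37 in sham and 8.15 after ligation. The receptor phosphatase Ptprb was at 8.33 and 6.49, the angiopoietin receptor Tek at 6.14 and 4.44, the VEGF receptor Kdr at 4.91 and 3.47, and Pecam1 at 8.34 and 7.19. The sialomucin gene Emcn was at 8.97 and 7.61. In the list of adhesion molecules, of which 3 of 22 were higher and 2 lower, the junction gene Jam2 was at 8.10 and 6.16. Aplnr, the apelin receptor of venous endothelium, was higher, at 4.60 and 6.27. The Tek ligands Angpt1 (5.09 and 3.26) and Angpt2 (6.39 and 5.27) were both lower, and Vegfa was at 5.66 and 5.58. Of 8 lymphatic genes 2 were lower and 1 was higher, with a median of -0.78. Mmrn1 was at 6.57 and 4.18 and the lymphatic regulator Prox1 at 4.22 and 3.31, while podoplanin, Pdpn, was higher, at 5.63 and 6.89. Podoplanin is also made by fibroblasts and macrophages. Of the luminal adhesion molecules for leukocytes, P-selectin, Selp, was at 4.68 and 5.27 and Vcam1 at 6.22 and 6.01.

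Of 20 flow-responsive endothelial genes 3 were higher and 4 lower (median -0.32), and of 17 vasoactive receptors and ligands 1 was higher and 3 were lower (median -0.41). The endothelial nitric oxide synthase Nos3 was at 5.16 in sham and 3.74 after ligation. The subunits of soluble guanylate cyclase, the nitric oxide receptor of muscle, were at 7.52 and 6.19 (Gucy1a1) and 5.07 and 4.07 (Gucy1b1), the cGMP-dependent kinase Prkg1 at 5.10 and 4.15, and the phosphodiesterase Pde5a that removes cGMP at 5.43 and 4.22. The differences of these 5 genes, which were grouped after their values had been seen, lay between -0.95 and -1.42, with Prkg1 short of 2-fold. The flow-induced transcription factor genes were not alike, with Klf4 at 4.48 and 3.21 and Klf2 at 4.70 and 4.59, and Ccn2 and the basement membrane proteoglycan gene Hspg2 (5.61 and 6.66) were among the higher members. The endothelin receptor Ednrb was higher, at 4.53 and 6.09. Flow itself was not measured.

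Contractile genes were lower in a few members rather than as a block. Of 25 smooth muscle genes 5 were at least 2-fold lower and 0 higher, with a median of -0.42. Acta2 was at 9.68 and 9.64, while Myh11 was at 9.46 and 7.89, a 2.97-fold lower value. The actin-bundling Synpo2 was at 7.20 and 5.03, the calcium pump regulator Pln at 4.73 and 3.04, the intermediate filament Synm at 5.17 and 3.91 and the leiomodin Lmod1 at 6.27 and 5.23. The master coactivator Myocd was at 5.13 and 4.39. Pericyte genes had Rgs5, an abundant mural signalling regulator, at 8.81 and 7.84 and the growth factor receptor Pdgfrb at 5.42 and 6.65. Of 10 cardiac muscle genes 4 were lower (median -0.61), Actc1 and the troponin Tnnt2 (5.33 and 3.77) with the largest differences beside Pln. Of 12 potassium and calcium channel genes of muscle 0 were 2-fold apart, with differences between -0.99 and 0.44 and a median of -0.54.

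Of 24 neuron and synapse genes 14 were at least 2-fold lower and 0 higher, and their median of -1.31 was the lowest of the 77 lists. They included the steps of noradrenaline synthesis and reuptake: tyrosine hydroxylase, Th, was at 5.08 in sham and 3.57 after ligation, dopamine beta-hydroxylase, Dbh, at 6.85 and 5.00 and the noradrenaline transporter Slc6a2 at 4.88 and 3.05. The ganglionic acetylcholine receptor subunit Chrna3 was at 6.39 and 3.97, the granin Scg2 at 5.03 and 2.70 and the neurofilament Nefm at 5.76 and 3.68. The growth cone protein Gap43 was at 5.96 and 5.74. The noradrenaline genes Th, Dbh and Slc6a2 are typical of sympathetic neurons. How much nerve each pooled piece held was not measured. Schwann cell genes were lower in 3 of 17, with Fabp7, the adhesion gene Cdh19 (5.99 and 4.41) and S100b (6.20 and 4.97), and higher in Pmp22 (8.14 and 9.42) and Egr2 (3.95 and 5.31).

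Of 23 interferon-induced genes 1 was higher and 3 were lower, with a median of -0.03 that became 0.33 when only genes above the median level were kept. Ifit3 was at 7.52 in sham and 5.45 after ligation, Ifit1 at 5.41 and 3.82 and Mx2 at 3.88 and 2.87, all genes that restrict viruses after type I interferon. Oas2, which makes a signal that activates RNA decay, was at 3.20 and 5.10, and the regulator Irf7 at 3.14 and 3.71. The promoters of Ifit3 and Ifit1 are shown because they carry the core of the interferon-stimulated response element, GAAA, any 2 bases and GAAA, on the minus strand. This motif was chosen after the values had been seen. Capitals mark it, and the windows are chr19:34583279-34583528 (Ifit3) and chr19:34640639-34640888 (Ifit1), plus strand, RefSeq on GRCm38.p6.
Ifit3: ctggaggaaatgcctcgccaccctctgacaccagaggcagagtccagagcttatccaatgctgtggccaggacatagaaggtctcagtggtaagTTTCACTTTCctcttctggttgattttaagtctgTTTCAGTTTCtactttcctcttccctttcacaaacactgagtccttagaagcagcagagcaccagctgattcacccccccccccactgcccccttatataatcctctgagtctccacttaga
Ifit1: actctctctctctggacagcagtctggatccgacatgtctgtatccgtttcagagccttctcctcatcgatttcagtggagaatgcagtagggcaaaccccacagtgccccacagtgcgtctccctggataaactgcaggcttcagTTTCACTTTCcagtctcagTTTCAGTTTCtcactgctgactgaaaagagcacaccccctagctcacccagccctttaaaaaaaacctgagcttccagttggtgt

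Each of these windows held 2 matches. The core stood in 9 of 20 interferon-induced genes with a window (45%), against 3.15% of all genes, 4.02% of those at least 2-fold higher and 4.30% of those lower.

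Of 22 genes that detoxify and oxidise small molecules 8 were lower and 2 higher, with a median of -0.58. Inmt stood first. The flavin monooxygenase Fmo2 was at 7.72 in sham and 5.97 after ligation, the epoxide hydrolase Ephx1 at 7.09 and 5.25 and the glutathione transferases Gsta4 and Gstm1 at 5.11 and 3.43 and at 8.64 and 7.24. The retinoic acid enzymes diverged, with Aldh1a1 at 5.90 and 4.63 and Aldh1a2 at 2.73 (under background) and 4.46. Brown fat genes were lower in 4 of 15, with Ucp1, the heat-producing uncoupler, at 4.14 and 2.03 (under background), and Cox8b. White adipocyte genes were higher in 3 of 24 and lower in 0, with the adipokine Adipoq at 7.62 and 7.50. In fatty acid oxidation genes the pyruvate dehydrogenase kinase Pdk4 alone was 2-fold apart, at 6.08 and 4.42.

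Glycolysis was higher in part, with 4 of 22 genes at least 2-fold higher, 0 lower and a median of 0.66. Lactate dehydrogenase, Ldha, was at 6.00 in sham and 7.63 after ligation. The glucose transporter Slc2a1, at 4.41 and 5.40, was just under 2-fold. For the glycolytic enzyme genes Tpi1 and Pkm the side of 2-fold depended on the probe set. The brightest and next gave 1.04 and 0.32 for Tpi1 and 0.96 and 2.36 for Pkm. With values raised to the olfactory background the median of this list was 0.30. The hypoxia list did not follow, with 1 of 17 higher, 2 lower and a median of -0.17: Hif1a was at 6.65 and 6.92, and the endothelial hypoxia factor Epas1 at 8.46 and 7.20. Heat shock genes had 0 of 10 apart.

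Genes of a single protein complex did not always move together. In the mitochondrial ATP synthase, a list drawn up after the values had been seen, Atp5d was at 5.06 and 7.43, Atp5g2 at 5.15 and 6.92 and Atp5g1 at 5.24 and 6.86, while Atp5l was at 9.13 and 8.61 and the median of the 15 subunits was 0.00. In the respiratory chain list the complex I genes Ndufv1 (3.52 and 4.60) and Ndufa5 (7.76 and 6.47) differed in sign. In other complexes, Cox4i1 of complex IV was at 6.45 and 7.71 and Uqcrb of complex III at 8.12 and 6.95. Of the 31 genes in that list 2 (6.45%) were higher and 3 (9.68%) lower, against 6.6% and 3.63% of all genes. Their median was 0.14. Nhp2 was 8.09-fold higher, whereas its partners in the same nucleolar particles, Dkc1, Gar1 and Nop10, had differences of 0.39, 0.15 and -0.42. Of 24 ribosomal protein genes 2 (8.33% against 6.6% of all genes) were 2-fold higher, Rps9 (7.19 and 8.74) and Rpl8 (7.76 and 8.84). The value of Rps9 depended on the probe set, with a difference of 1.55 by its brightest and 0.06 by its next. The median of that list was 0.03. The cause of these unequal differences was not tested.

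Of 20 genes of nucleotide and adenosine handling, 4 were higher and 1 lower. The ATP-gated channels P2rx4 (4.15 and 5.87) and P2rx7 (4.19 and 5.89), the UDP receptor P2ry6 (5.18 and 6.84) and adenosine deaminase, Ada (4.22 and 5.63), were higher, and adenosine kinase, Adk, was at 5.50 and 4.41. Entpd1 was at 7.11 in sham and 6.17 after ligation, 1.92-fold lower, and Nt5e, the next enzyme in the chain to adenosine, at 3.54 and 3.81.

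The Cd39-null pair shares no array with the wild-type pair, and its values are given side by side; on the array labelled Cd39-null, ligated, Entpd1 was at 6.14, against 4.16 in Cd39-null, sham, which goes against the label. Of the 15 highest ranked genes 11 were at least 2-fold higher in that pair too (10.9% of all genes kept were), Timp1 with 4.27 against 4.16, and of the 15 lowest 11 were at least 2-fold lower (5.8% of all were), Retnla with -3.67 against -3.35. Hpgds had differences of 2.88 in wild type and -0.85 in the Cd39-null pair, Bub1 of 2.87 and 0.01, Ccl8 of 2.62 and -2.25, and Scgb1a1 of -4.49 and -0.72. List medians were close for monocyte and macrophage markers (1.77 and 1.46), collagen enzymes (1.15 and 1.31), secretory pathway genes (0.73 and 0.74), and neuron and synapse genes (-1.31 and -1.15). They lay further apart for mitosis genes (1.89 and 0.82), pan-endothelial genes (-0.38 and 0.30), B cell markers (-0.35 and -1.79) and platelet genes (-0.79 and 3.99). None of these contrasts was tested.

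**Figure D4:**
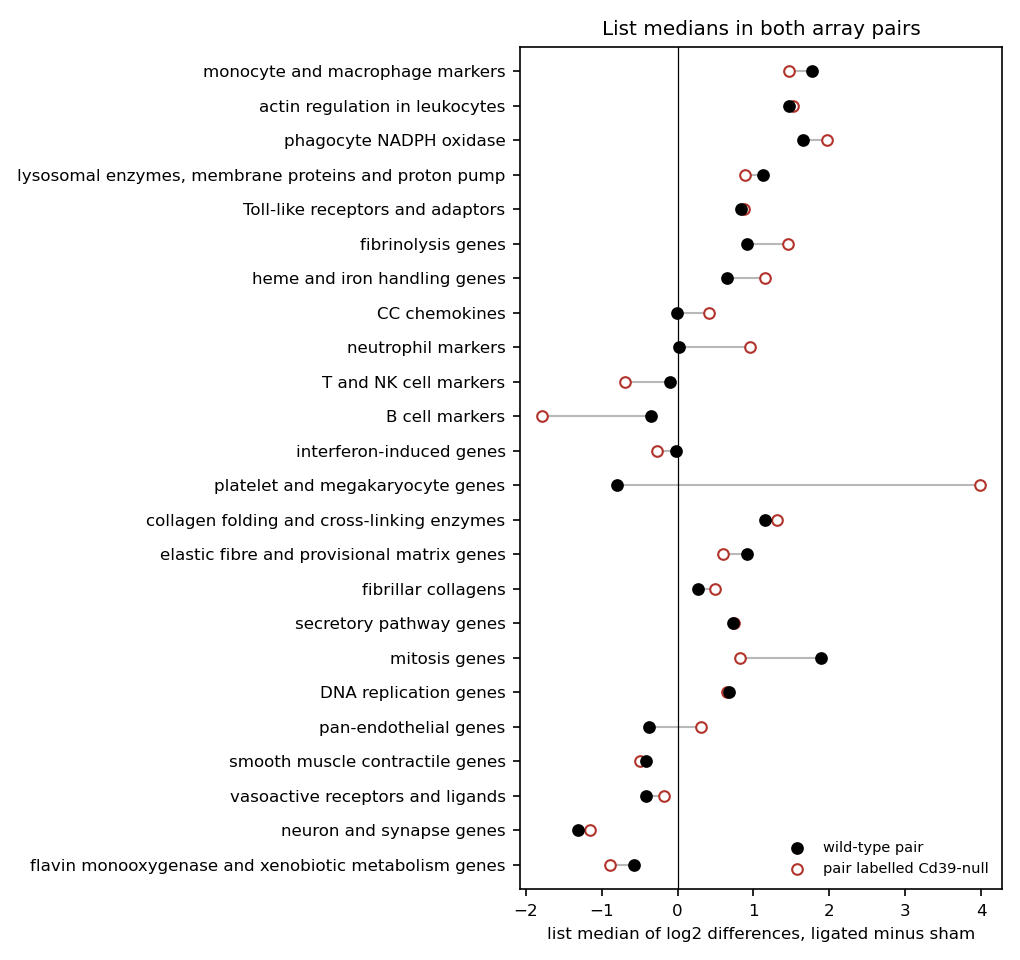
Median ligation difference (log2, horizontal axis) of 24 gene lists in the wild-type pair (filled circles) and the pair labelled Cd39-null (open circles), 1 array a group. The widest gap is that of platelet and megakaryocyte genes, at -0.79 and 3.99.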

How the data were processed

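The labels' protocols state that cDNA was amplified with a NuGEN kit from 50 ng of Trizol-extracted RNA and that 3 µg of it was biotinylated. Per the submitters' processing notes, the authors made the deposited log2 values with oligo and RMA; no version or genome build was given. RMA removes background signal and makes the value distributions of all arrays equal before it summarises probes, so a shift of all genes together would be hidden. Values were used as deposited, without scanner files.

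Of 35556 probe sets, 21218 carried 1 gene symbol by GEO's platform annotation, 1881 several and 12457 none; those with 1 entered the comparison. A gene's probe set was the one with the highest mean over the 4 arrays, and genes under the 25th percentile of that mean were dropped. No test was possible with 1 array a group; a gene counts as apart at 2-fold. The gene step was tested on simulated data.

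The members and the 77 gene lists were chosen with earlier results of these data known. List names were updated through RefSeq synonyms. Of the lists, 4 (lysosome, secretory pathway, ATP synthase, leukocyte actin) were written after the values had been seen. Genes named were the 15 highest and 15 lowest whose brighter wild-type array was above background (predicted, small RNA, immune receptor segment and odorant genes left out), the key members of each list with up to 6 others of largest difference, up to 4 of each of 62 gene families, Entpd1 and the sex linked genes. Ccl11, Timd4, Npy, Dkc1, Gar1 and Nop10 were named after their values were seen. Promoter letters were read from RefSeq windows. The work used Python 3.11.15, pandas 2.3.3 and, for cyclic loess and quantile alternatives, limma 3.58.1 in R 4.3.3.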

Additional observations from a re-analysis of the deposited data

Results flagged for a closer look

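The ligation difference of platelet and megakaryocyte genes had opposite signs in the array pairs. Its median over 14 genes was -0.79 in wild type, where 6 genes were at least 2-fold lower and 0 higher, and 3.99 in the pair labelled Cd39-null, where all 14 were at least 2-fold higher. The single genes show the gap directly: Clec1b differed by -2.21 in wild type and 4.65 in the other pair, Gp5 by -2.03 and 3.73, and Tubb1 by -1.26 and 5.86. The difference between the pairs was not tested, and each of these arrays is a single pool.

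Histone probe sets that carry several gene symbols were outside the comparison of genes. The 32 probe sets whose symbols are all core or linker histone genes had a median ligation difference of 2.03 in wild type, with 31 at least 2-fold higher, 0 lower and 17 at least 4-fold higher. Over all 1881 probe sets with several symbols, 95 were at least 2-fold higher and 53 lower. A probe set with several symbols may read more than 1 gene, so the 32 cannot be counted as separate genes. The 26 histone genes with a probe set of their own symbol differed less, with 5 higher, 3 lower and a median of 0.21. The median level of the 32 probe sets was 5.89 in sham and 7.11 after ligation. By class, 10 H3 probe sets had a median of 2.25, 13 H2A probe sets one of 2.07 and 6 H4 probe sets one of 1.30. The median in the pair labelled Cd39-null was 1.5. Most such histones are made in S phase. The DNA replication list described in the report had a median of 0.68, with 8 of 22 higher, and the mitosis list one of 1.89. Whether the histone values relate to cell division was not tested.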

How the results depend on the processing

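No paired analysis was possible because each group has 1 array. The counts of genes at least 2-fold higher (932) and lower (512) stayed within 1.5 times of these under the 7 alternatives tried, which gave 781 to 935 and 393 to 619. The share of higher genes among them was 64.5%, and 55.8% after quantile normalisation of the deposited values, 59.5% after cyclic loess and 63.7% to 68.9% under the others. Quantile normalisation kept 1266 of the 1444 genes and cyclic loess 1298. Of 476 list and family members at least 2-fold apart, none of those still kept changed sign under any of the 7. For several settings this outcome was largely fixed. A change of the filter alone leaves a kept gene's value as it was, and averaging alters only genes with several probe sets (1386 of 18820). All settings use the same arrays, so they cannot show whether a difference would repeat in other pools. Averaging a gene's probe sets brought Cdkn1b to -0.29 from -1.04, Fbl to 0.38 from 1.25, Ppargc1a to -0.59, Shmt2 to 0.63 and Tpi1 to 0.68. Keeping only genes above the median level moved the list medians of CC chemokines from -0.01 to 1.83, of interferon-induced genes from -0.03 to 0.33 and of fibrillar collagens from 0.27 to 1.51. Background limits dim genes: 123 of the higher genes were at or under it in sham and 95 of the lower ones after ligation.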

Other observations

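Families formed by the shared start of gene symbols give further counts. Of 12 Fc receptor genes, which bind antibody on leukocytes, 6 were at least 2-fold higher and 0 lower, and of 28 integrin genes, which bind cells to matrix and to each other, 4 were higher and 0 lower. Solute carrier genes had 21 of 261 higher and 6 lower, and zinc finger protein genes, mostly DNA-binding factors, 2 of 293 higher and 5 lower, both against 6.6% and 3.63% of all genes kept. The shares of all genes are not matched to the signal level of these families. Of 54 potassium channel genes 0 were higher and 4 lower, and of 31 HOX genes, which mark position along the body, 0 were higher and 1 lower.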
